A study of Mus musculus with 4 samples.

Results

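Transcripts of 45 DNA replication genes were followed in mouse mammary cells with and without ΔNp63, the p63 isoform of basal epithelial cells, a transcription factor that lacks the N-terminal activation domain. The genes were taken from a list of licensing, polymerase, nucleotide supply and S phase control genes, matched by GENCODE M21 symbol to the 54393 gene identifiers of the count table. All 45 were found, and all 45 passed the filter on low counts that left 18917 genes for testing.

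Libraries came from wild-type (WT) mice and from mice with a conditional knockout (cKO) labelled Dnp63 cKO. Tamoxifen at 1.5 mg/ml was given at puberty, at 4 weeks of age, and glands were taken 10 days or 5 weeks later. Each genotype had 1 library at each time point, so n = 2 per genotype and n = 2 per time point. The protocol, worded identically for every library, names iK14-Cre; DNp63 f/f mice, in which an inducible Cre is driven from the keratin 14 promoter of basal cells. Whether the WT animals carried Cre, how many animals gave a library and whether animals were pooled are not given in the labels. The labels also name gland ages of 5 and 35 weeks without tying them to a library, and 35 weeks is later than 5 weeks after tamoxifen at 4 weeks, so this label conflicts with the time points. The time points were used and the ages were not. Each library used 100000 dissociated cells left after cells with CD45, CD31 or Ter119 had been sorted out.

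Total counts per library ran from 31714181 to 79122250, with WT at 5 weeks the deepest. The deleted gene, Trp63, stood at 46.8 and 160.5 CPM (the count scaled to TMM-adjusted library size) in WT, compared with 12.8 and 25.5 CPM in cKO, at 10 days and 5 weeks. Gene-level counts hold every isoform of it. The labels call the cells mammary epithelial. Summed over 8 markers, luminal epithelium gave between 7110.2 and 8928.6 CPM per library. Summed over 6 markers, fibroblasts gave between 21658.8 and 48955 CPM, so markers of both epithelium and stroma were present in every library. In such bulk samples, fewer cells of a type and less RNA per cell cannot be told apart.

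DNA replication starts when the origin recognition complex, with Cdc6 and Cdt1, loads the ring-shaped Mcm2 to Mcm7 helicase onto DNA. In S phase Cdc45 and the GINS complex join this ring to make the moving helicase, polymerases copy the strands, and the sliding clamp PCNA tethers them to DNA. Many of these genes are switched on before S phase by E2F transcription factors, so their transcripts are widely read as a sign of cycling cells. In the pubertal mammary gland, growing ducts hold many dividing epithelial cells.

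Because E2F control links many of the members, their promoters were searched, and 5 are shown so that the matches can be seen in place. Windows of 250 bases before and 50 bases after the start site came from RefSeq (GRCm38.p6), where 36 of the 45 genes had at least 1 window. The 4 letter strings searched for E2F were TTTCCCGC, TTTGGCGC, TTTGCCGC and TTTCGCGC, on both strands. TTTCGCGC and the reverse complement of TTTGGCGC can overlap, as they do in Mcm5 and Mcm6. Each line below gives 200 bases that end just before the start site, 5′ to 3′ on the gene's strand, outside annotated exons, with E2F matches in capitals.

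The Mcm5 stretch lies at chr8:75109309-75109508 (plus strand), Mcm6 at chr1:128359706-128359905 (minus strand), Pola1 at chrX:93632156-93632355 (minus strand) and Mcm2 at chr6:88898781-88898980 (minus strand). Uhrf1 has 2 listed windows, and the stretch at chr17:56304113-56304312 (plus strand) holds its match. Mcm5, Mcm6 and Uhrf1 were chosen as genes lower in cKO, Pola1 as a gene with a smaller difference, and Mcm2 as a gene lower in cKO with no match.
Mcm5: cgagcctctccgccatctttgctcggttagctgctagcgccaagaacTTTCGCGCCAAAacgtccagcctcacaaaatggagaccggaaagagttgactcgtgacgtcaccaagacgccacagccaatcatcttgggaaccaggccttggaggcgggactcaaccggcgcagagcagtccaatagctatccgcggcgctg
Mcm6: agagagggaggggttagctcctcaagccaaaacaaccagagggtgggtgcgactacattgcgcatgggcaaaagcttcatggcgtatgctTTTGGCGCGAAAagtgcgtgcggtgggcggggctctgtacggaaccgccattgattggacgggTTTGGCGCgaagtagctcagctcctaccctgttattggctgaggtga
Uhrf1: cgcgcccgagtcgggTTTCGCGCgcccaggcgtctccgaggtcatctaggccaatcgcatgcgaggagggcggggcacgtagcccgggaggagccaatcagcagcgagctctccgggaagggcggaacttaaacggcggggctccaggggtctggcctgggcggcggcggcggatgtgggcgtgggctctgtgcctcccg
Pola1: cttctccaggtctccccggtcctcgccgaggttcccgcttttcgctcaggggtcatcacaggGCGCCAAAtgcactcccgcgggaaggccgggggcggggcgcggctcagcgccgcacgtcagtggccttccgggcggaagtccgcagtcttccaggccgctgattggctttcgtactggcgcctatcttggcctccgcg
Mcm2: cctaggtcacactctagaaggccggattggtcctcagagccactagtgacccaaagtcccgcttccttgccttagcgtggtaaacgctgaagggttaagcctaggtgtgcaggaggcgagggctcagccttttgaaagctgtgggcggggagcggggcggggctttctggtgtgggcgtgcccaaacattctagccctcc

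In Mcm5 the overlapping pair begins 153 bases before the start site, and in Mcm6 an overlapping pair begins at 110 bases and a single match at 47 bases before it. A match stood in the windows of 14 of 36 replication genes, or 38.9%. Among all 12495 tested genes with a window the share was 4.22%, and among all 32851 windows it was 2.26%. The promoter letters CCAAT, bound by the factor NF-Y, stood on either strand in a window of 22 of 36 replication genes, or 61.1%, against 42.3% of tested genes with a window. Replication genes with an E2F match had a median log2 fold change between genotypes of -0.72 (14 genes, from -1.77 to -0.04). Those without had a median of -0.54 (22 genes, from -1.78 to -0.03). The ranges of the 2 groups overlapped almost wholly, and the difference was not tested. These matches are a description of letters in a window and show no binding.

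Between genotypes, with time point held constant, replication transcripts tended to be lower in cKO, and how many passed an adjusted threshold depended on the tool. Of the 45 genes, 44 had a negative log2 fold change (cKO over WT, below 0 where cKO was lower), and their median was -0.58, beside -0.01 for all genes tested. By edgeR's quasi-likelihood test 0 of the 45 had an adjusted p under 0.05, where 0.0581% of all genes did (11 of 18917). At an unadjusted p under 0.05, 18 of the 45 were lower and 0 higher, or 40%, where 5.8% of all genes were lower. Without the time term but with all 4 libraries, 15 of the 45 were lower at that level, where 5.83% of all genes were. Leaving out a library, in fits that also lacked the time term, changed the median log2 fold change of the 45. It was -0.50 without cKO at 10 days, -0.39 without WT at 5 weeks, -0.67 without cKO at 5 weeks and -0.72 without WT at 10 days. DESeq2 called 5 of the 45, all lower (Mcm5, Tk1, Uhrf1, Rrm2 and Pole), where it called 1.5% of all genes lower. By limma-voom 0 of the 45 were called, where 29 of 18917 genes were. Without the low-count filter edgeR called 8 of the 45, all lower, where it called 1235 of 33332 genes in either direction.

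Lower values were found at both time points for most of the members. The ratio of cKO to WT was below 1 at both times for 34 of the 45, or 75.6%, where 30.4% of all genes were. Both cKO libraries stood below both WT libraries for 33 of the 45, where 23.3% of all genes did. Summed over the 45 genes, transcripts made up 791.3 and 955.2 CPM in WT and 592.7 and 620.7 CPM in cKO, at 10 days and 5 weeks. The members differed by unequal amounts, from a log2 fold change of -1.78 for Tk1 to 0.27 for Ccne2. Other annotated genes overlap 21 of the 45 loci, 17 of them on the opposite strand, among them Orc1, Orc6, Mcm7, Cdc45, Pole, Pole2, Rfc4, Fen1, Lig1, Tk1 and Ccne2. The overlap was taken over whole loci, introns included, so it does not show that exons are shared. The labels do not say if strand was used in counting, so reads of overlapping genes may be mixed there. This was not checked, and these values are uncertain to that extent. Pcna and Tyms have annotated pseudogenes with which reads may be shared.

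**Figure D1:**
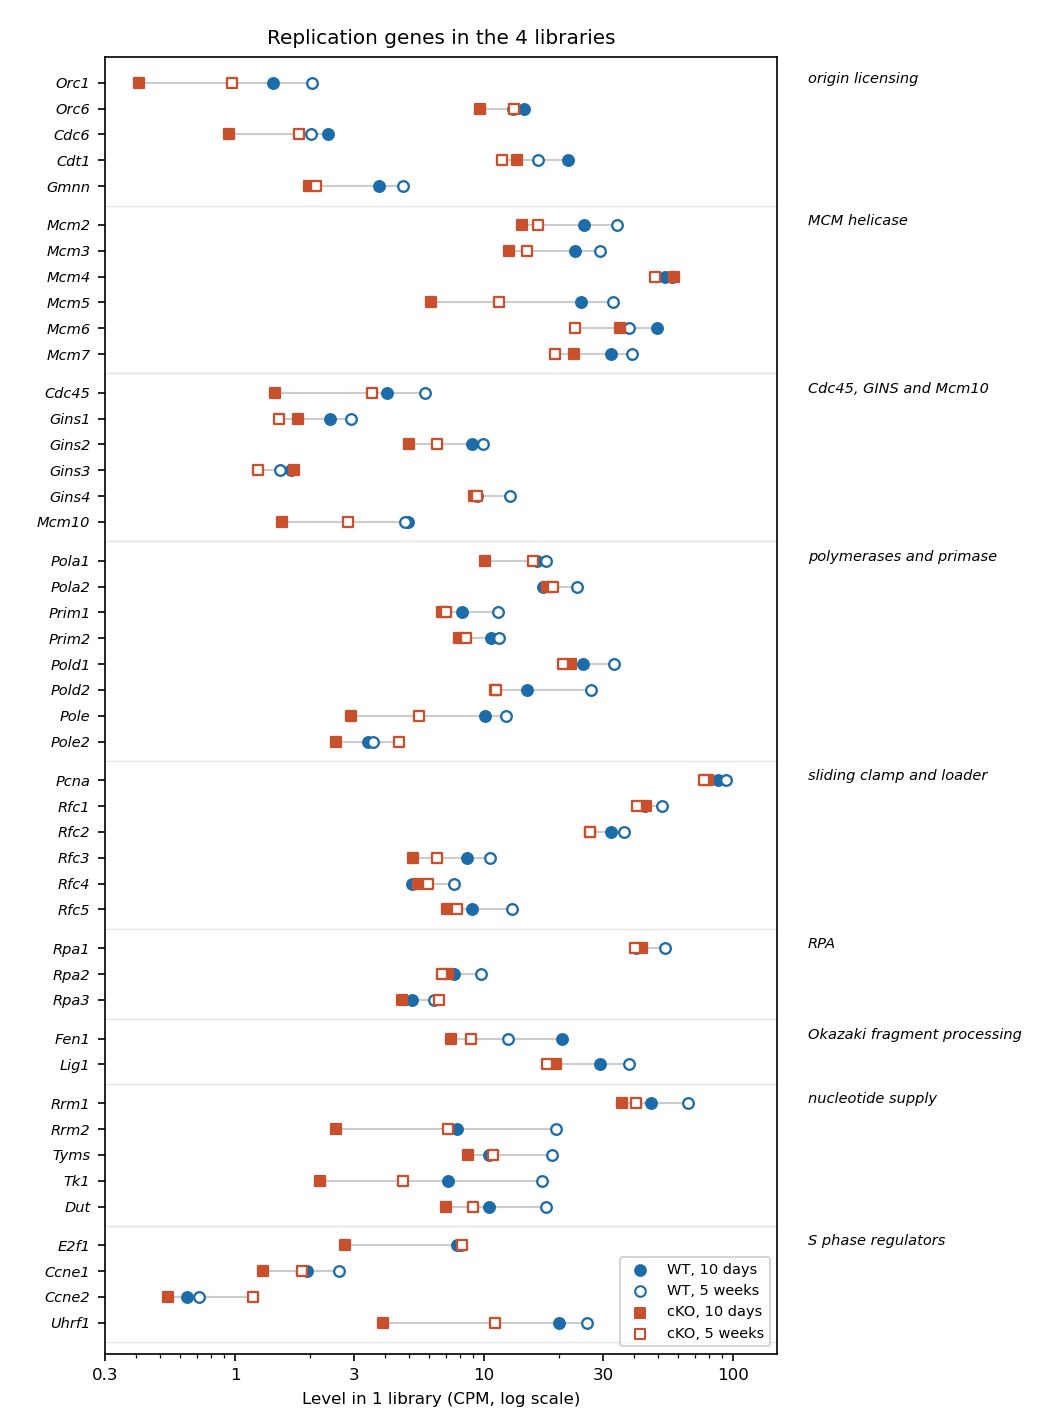
Level of each of the 45 replication genes in each of the 4 libraries, in CPM on a log scale, ordered by role; circles are WT, squares cKO, filled marks 10 days and open marks 5 weeks. In 33 of the 45 rows both squares lie to the left of both circles, with wide gaps for Mcm5 and Tk1 and nearly coincident marks for Pcna and Mcm4.

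Origin licensing genes prepare start sites before S phase, and Orc1, scarce in all 4 libraries, differed most among them. Orc1, the subunit of the origin recognition complex whose amount follows the cell cycle, stood at 1.42 and 2.04 CPM in WT, compared with 0.409 and 0.972 CPM in cKO, at 10 days and 5 weeks. Both cKO libraries were below both WT libraries, with a log2 fold change of -1.40 (SE 0.487, adjusted p = 0.388). It rested on 13 counts in cKO at 10 days, so its size is uncertain. Gmnn, which encodes geminin, the inhibitor of Cdt1 after origins have fired, stood at 3.77 and 4.74 CPM in WT against 1.98 and 2.12 CPM in cKO (-1.04, SE 0.374, adjusted p = 0.392). Its groups did not overlap either. Orc6, another origin recognition subunit and the most abundant of these genes per kilobase of exon, stood at 14.5 and 13.1 CPM in WT, compared with 9.60 and 13.2 CPM in cKO. WT and cKO were level at 5 weeks, and the log2 fold change was -0.29 (SE 0.292). For the helicase loaders the log2 fold change was -0.72 in Cdc6 (SE 0.489) and -0.58 in Cdt1 (SE 0.244).

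The 6 subunits of the MCM helicase are present once each in the ring, yet their transcripts differed unequally. Mcm5 had the smallest p of all 45 genes. It lies at GRCm38 chromosome 8, 75109569 to 75128439, and stood at 24.4 and 32.9 CPM in WT, compared with 6.14 and 11.5 CPM in cKO. Every cKO value was under every WT value by a wide margin, and the log2 fold change was -1.75 (SE 0.259, unadjusted p = 0.000709, adjusted p = 0.157), or 3.36-fold lower. Mcm2 stood at 25.2 and 34.3 CPM in WT, compared with 14.2 and 16.5 CPM in cKO (-0.94, SE 0.228, adjusted p = 0.276). Mcm3 ran nearly in parallel, at 23.2 and 29.3 against 12.6 and 14.9 CPM (-0.93, SE 0.230, adjusted p = 0.284). For these 3 genes the genotypes were well apart at both time points.

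Mcm6 and Mcm7 showed smaller gaps. Mcm6 stood at 49.6 and 38.0 CPM in WT, compared with 35.0 and 23.1 CPM in cKO (-0.61, SE 0.211, adjusted p = 0.388). Mcm7 stood at 32.4 and 39.3 CPM in WT, compared with 23.0 and 19.2 CPM in cKO (-0.77, SE 0.244, adjusted p = 0.360). Its locus overlaps Cops6, Ap4m1 and a microRNA cluster. Mcm4 differed from its partners in the ring: it stood at 53.3 and 57.0 CPM in WT, compared with 57.9 and 48.7 CPM in cKO. The genotypes overlapped, with a log2 fold change of -0.05 (SE 0.206, adjusted p = 0.947). Per kilobase of annotated exon, Mcm4 was also the most abundant subunit, with a mean level of 15.4 in WT and 14.8 in cKO. The other subunits lay between 4.27 (Mcm2) and 9.39 (Mcm6) in WT and between 2.20 (Mcm2) and 6.23 (Mcm6) in cKO on that scale.

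Cdc45, GINS and Mcm10 turn the loaded ring into a working helicase. Cdc45 stood at 4.09 and 5.79 CPM in WT, compared with 1.45 and 3.53 CPM in cKO, with no overlap (-1.09, SE 0.399, adjusted p = 0.398). Mcm10, which helps to activate the helicase, stood at 4.94 and 4.81 CPM in WT, compared with 1.54 and 2.83 CPM in cKO (-1.21, SE 0.416, adjusted p = 0.388). In both genes the gap was wider at 10 days than at 5 weeks. The 4 GINS subunits, which bind one another in equal numbers, spread over a range: Gins2 had a log2 fold change of -0.73 (SE 0.307) and Gins1 of -0.70 (SE 0.416). Gins4, the most abundant per kilobase, stood at 9.38 and 12.7 CPM in WT against 9.13 and 9.34 CPM in cKO (-0.24, SE 0.291). Gins3 stood at 1.68 and 1.52 CPM in WT against 1.73 and 1.24 CPM in cKO, overlapping between genotypes (-0.13, SE 0.434).

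Among polymerase genes a single catalytic subunit stood out. Pole, the catalytic subunit of the leading-strand polymerase epsilon, stood at 10.1 and 12.2 CPM in WT, compared with 2.93 and 5.48 CPM in cKO. These groups were far apart (log2 fold change -1.47, SE 0.337, adjusted p = 0.262). Its partner subunit Pole2 stood at 3.43 and 3.59 CPM in WT, compared with 2.55 and 4.54 CPM in cKO, which overlapped (-0.04, SE 0.395, adjusted p = 0.984). Pold2, the accessory subunit of the lagging-strand polymerase delta, stood at 14.8 and 26.9 CPM in WT, compared with 11.1 and 11.2 CPM in cKO (-0.84, SE 0.304, adjusted p = 0.392). Here the wider gap was at 5 weeks, where WT was high. The catalytic subunit Pold1 had -0.42 (SE 0.244). For the polymerase alpha and primase complex, which lays down the primers, log2 fold changes ran from -0.48 for Prim1 (SE 0.308) over -0.45 for Prim2 (SE 0.282) and -0.43 for Pola1 (SE 0.269) to -0.14 for Pola2 (SE 0.242).

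By median log2 fold change, the sliding clamp and its loader (-0.29) and the single-strand binding protein RPA (-0.16) differed least among the roles. Of these 9 genes 0 reached an unadjusted p under 0.05, where 5.8% of all genes were lower at that level. So few genes cannot tell these shares apart. Pcna, the clamp, was the most abundant member both in CPM and per kilobase, at 86.7 and 93.2 CPM in WT, compared with 79.5 and 76.5 CPM in cKO. The cKO libraries were the lower ones, by a small margin (-0.20, SE 0.190, adjusted p = 0.733). The clamp loader genes ran from -0.72 for Rfc3 to -0.13 for Rfc4. Rfc3 stood at 8.56 and 10.6 CPM in WT against 5.19 and 6.45 CPM in cKO (SE 0.301, adjusted p = 0.448), and Rfc4 at 5.11 and 7.57 CPM against 5.41 and 5.95 CPM. Rfc3 was separated by genotype and Rfc4 was not. Between them lay Rfc5 at -0.53 (SE 0.298), Rfc2 at -0.37 (SE 0.214) and Rfc1 at -0.16 (SE 0.211).

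RPA coats unwound DNA in replication and in repair. Rpa1, its large subunit, stood at 40.7 and 53.4 CPM in WT, compared with 43.2 and 40.4 CPM in cKO (-0.16, SE 0.224). Rpa2 stood at 7.58 and 9.67 CPM against 7.18 and 6.80 CPM (-0.29, SE 0.313). Rpa3 stood at 5.14 and 6.27 CPM against 4.69 and 6.57 CPM (-0.03, SE 0.328). Rpa1 and Rpa3 overlapped between genotypes, and Rpa2 was slightly lower in cKO.

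Fen1 and Lig1, the flap nuclease and the ligase that join Okazaki fragments, were lower in cKO at both times. Fen1 stood at 20.6 and 12.5 CPM in WT, compared with 7.37 and 8.87 CPM in cKO (-0.99, SE 0.344, adjusted p = 0.388), and most of its gap lay at 10 days. Lig1 stood at 29.1 and 38.1 CPM in WT, compared with 19.5 and 17.9 CPM in cKO (-0.83, SE 0.244, adjusted p = 0.335), and its gap was wider at 5 weeks.

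Nucleotide supply held the largest difference of any member. Tk1, the S phase thymidine kinase of the salvage pathway (GRCm38 chromosome 11, 117815526 to 117826092), stood at 7.17 and 17.1 CPM in WT, compared with 2.20 and 4.71 CPM in cKO. All cKO values were below all WT values, with a log2 fold change of -1.78 (SE 0.312, unadjusted p = 0.00159, adjusted p = 0.215), or 3.44-fold lower. Afmid overlaps it on the opposite strand. Rrm2, the regulatory subunit of ribonucleotide reductase that limits deoxynucleotide synthesis, stood at 7.75 and 19.5 CPM in WT, compared with 2.55 and 7.13 CPM in cKO (-1.52, SE 0.295, adjusted p = 0.220). Rrm1, the large subunit of the same enzyme, stood at 46.9 and 65.7 CPM against 35.8 and 40.9 CPM (-0.54, SE 0.206, adjusted p = 0.417). Neither gene overlapped between genotypes, and the difference was larger for Rrm2 by value, which was not tested.

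Dut, which keeps uracil out of DNA, stood at 10.5 and 17.7 CPM in WT, compared with 7.02 and 9.01 CPM in cKO (-0.78, SE 0.286, adjusted p = 0.398). Tyms, thymidylate synthase, stood at 10.5 and 18.7 CPM against 8.63 and 10.9 CPM (-0.53, SE 0.285, adjusted p = 0.543). Dut did not overlap between genotypes. The cKO value of Tyms at 5 weeks lay just above the WT value at 10 days.

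Among the S phase regulators, Uhrf1 differed and the E2F and cyclin genes did not reach an unadjusted p under 0.05. Uhrf1, which helps to carry DNA methylation onto new strands, stood at 19.9 and 25.8 CPM in WT, compared with 3.93 and 11.1 CPM in cKO (-1.77, SE 0.356, adjusted p = 0.237), or 3.40-fold lower. The gap was wider at 10 days. E2f1, an activator of replication genes, stood at 7.81 and 8.08 CPM in WT, compared with 2.77 and 8.16 CPM in cKO (-0.72, SE 0.463), so it was low in a single library, cKO at 10 days. Without that library its log2 fold change was 0.03. The cyclin E genes, which start S phase with Cdk2, were scarce. Ccne1 had -0.54 (SE 0.409), and Ccne2 stood at 0.639 and 0.716 CPM in WT against 0.535 and 1.18 CPM in cKO (0.27, SE 0.524), the only positive estimate among the members. It held 17 counts in cKO at 10 days.

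**Figure D2:**
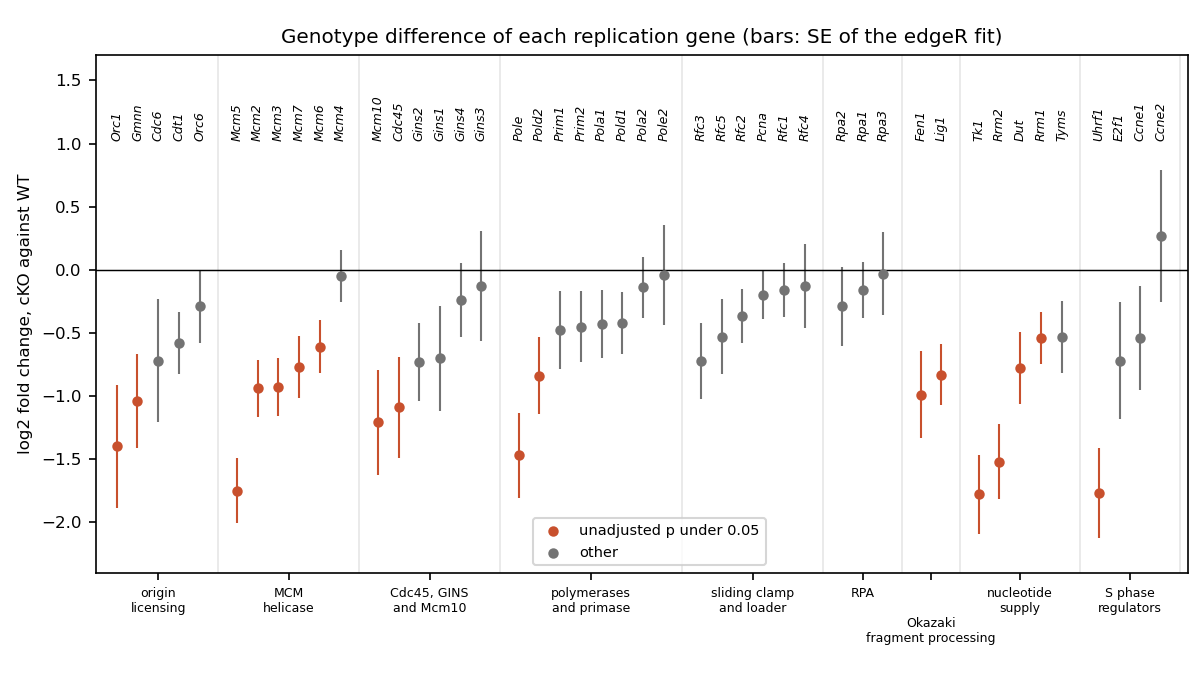
Log2 fold change of cKO against WT for each replication gene, grouped by role, from the fit with a time term; bars are SE and red marks an unadjusted p under 0.05. The largest differences (Tk1, Uhrf1, Mcm5, Rrm2, Pole) come from 4 roles, while clamp, loader and RPA genes lie between -0.72 and -0.03.

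For each of the 5 members called by DESeq2, both cKO libraries stood below both WT libraries. Leaving out a library could therefore hardly turn their direction, and only the sizes are of use in the 4 fits that did so without a time term. Mcm5 ran from -2.24 to -1.33, Tk1 from -2.48 to -1.05, Uhrf1 from -2.56 to -1.05 and Pole from -1.95 to -1.04. Rrm2 was -2.43 when the cKO library of 5 weeks was left out and -0.68 when the WT library of that time was. With no time term and a library missing, these sizes mix the genotype difference with the time difference. Within a time point, the log2 ratios at 10 days and 5 weeks were -1.59 and -1.45 for Rrm2 and -1.68 and -1.85 for Tk1. They were -1.98 and -1.51 for Mcm5, -1.78 and -1.15 for Pole and -2.33 and -1.22 for Uhrf1. In the fits with a library missing, the 45 members' median was -0.72 without WT at 10 days and -0.39 without WT at 5 weeks.

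**Figure D3:**
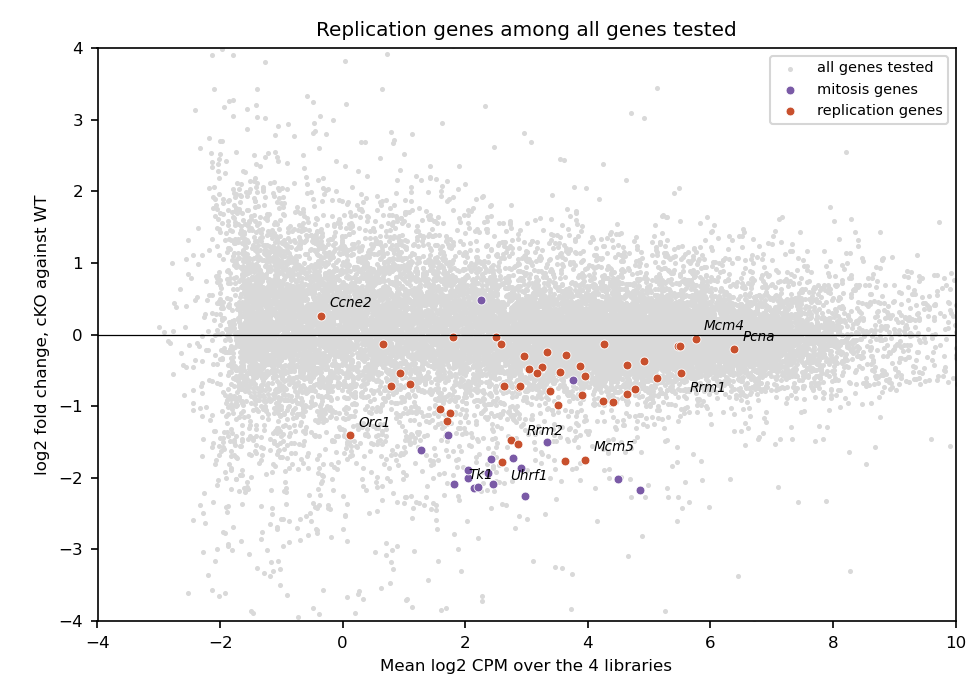
Log2 fold change of cKO against WT on the vertical axis against mean log2 CPM of the 4 libraries, for all 18917 genes tested (grey, 154 outside the plotted range), the mitosis genes (purple) and the replication genes (red). The replication genes lie mostly below 0, with a median of -0.58, from Orc1 and Ccne2 at low levels to Pcna at the highest.

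Over the 45 genes the Spearman correlation of log2 fold change with mean log2 CPM was 0.138. This is a description across genes of the same 4 libraries. Pcna, often used as a proliferation marker, and Mcm4 had the 2 highest levels per kilobase and were among the members that differed least by value.

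The ratio of cKO to WT could be read at each time point without a test, since each ratio rests on 2 libraries. The median log2 ratio of the 45 genes was -0.50 at 10 days and -0.68 at 5 weeks, beside 0 and -0.01 for all genes tested. At 10 days 39 of the 45 were lower in cKO, and at 5 weeks 40 were. Uhrf1 had the widest ratio at 10 days (-2.33), followed by Mcm5 (-1.98) and Pole (-1.78). At 5 weeks Tk1 had the widest (-1.85), followed by Mcm5 (-1.51) and Rrm2 (-1.45). Fen1 (-1.48 and -0.49) and Mcm10 (-1.65 and -0.76) had wider ratios at 10 days, and Pold2 (-0.42 and -1.26) and Lig1 (-0.58 and -1.08) at 5 weeks. Whether a ratio differed between time points was not tested.

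**Figure D4:**
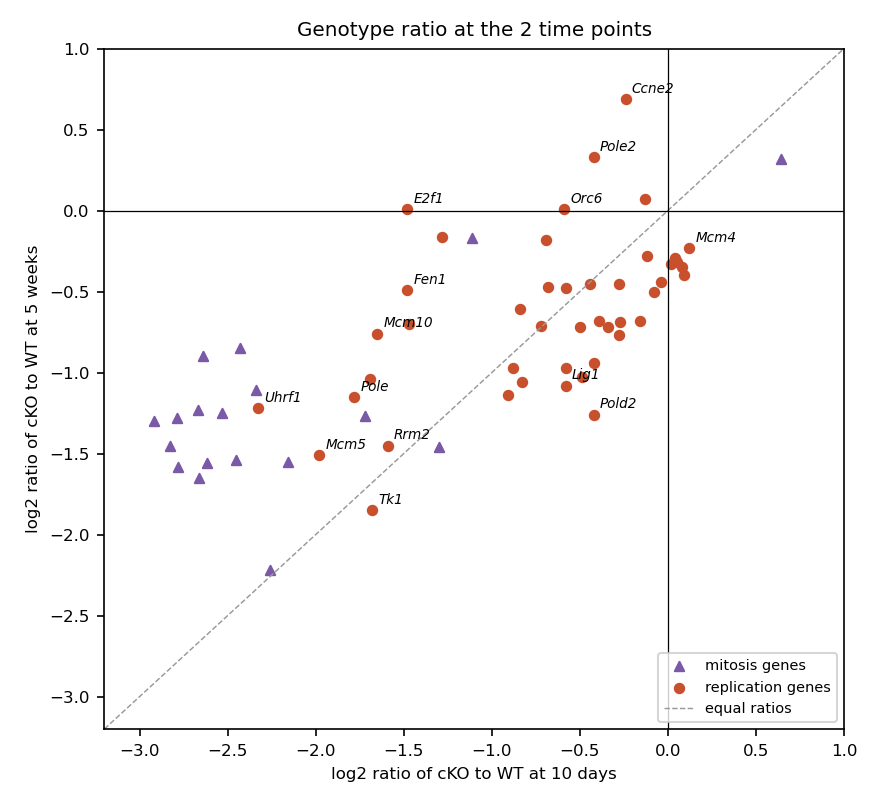
Log2 ratio of cKO to WT at 10 days (horizontal) and at 5 weeks (vertical) for the 45 replication genes (red circles) and 18 mitosis genes (purple triangles); the dashed line marks equal ratios. In the lower left quadrant, below 0 at both times, lie 34 replication genes and 17 mitosis genes, with most mitosis genes farther to the left than the replication genes.

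Other genes of the replication pathway were also mostly lower in cKO by value. Of 58 listed genes outside the 45, 45 had a negative log2 fold change, where 9564 of all 18917 genes did, and their median was -0.38. Whether this list differed from the 45 genes was not tested. In edgeR 0 had an adjusted p under 0.05, where 11 of all 18917 genes did. At an unadjusted p under 0.05, 10 were lower and 0 higher, where 5.8% of all genes were lower. DESeq2 called 3, all lower, where it called 1.5% of all genes lower. By limma-voom 0 were called, where 29 of 18917 genes were. The smallest p among them belonged to Shmt1, which feeds thymidylate synthesis, at 34.9 and 31.7 CPM in WT against 9.32 and 15.4 CPM in cKO (-1.47, SE 0.295, adjusted p = 0.236). The atypical repressor E2f8 (-1.81, SE 0.379) and the S phase cyclin Ccna2 (-1.88, SE 0.398) came next. Chaf1a and Chaf1b, subunits of the factor that places histones on new DNA, had -1.20 (SE 0.279) and -1.14 (SE 0.309). Clspn, a fork protection and checkpoint gene, had -1.42 (SE 0.415). The most abundant, Samhd1 (-0.29), Dnmt1 (-0.42) and Rb1 (0.32), did not reach an unadjusted p under 0.05.

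Mitosis genes were lower by more than replication genes by value. The 18 listed had a median log2 fold change of -1.91, with 16 lower and 0 higher at an unadjusted p under 0.05, where 5.8% of all genes were lower. In edgeR 0 had an adjusted p under 0.05, where 11 of all 18917 genes did. DESeq2 called 14 of the 18, all lower, where it called 1.5% of all genes lower. By limma-voom 0 were called, where 29 of 18917 genes were. With so few genes called by edgeR and limma-voom, 0 of 18 does not set these genes apart. Summed, they stood at 203.4 and 365.9 CPM in WT, compared with 44.3 and 149.6 CPM in cKO, at 10 days and 5 weeks. Their promoters differed in makeup from those of replication genes, with an E2F match in 1 of 16 genes and CCAAT in 14 of 16. The difference between these lists was not tested.

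Markers of other cells differed by genotype in the same libraries. Basal markers summed to 4747.7 and 15975 CPM in WT and to 1545.8 and 1618.3 CPM in cKO, with 4 of 6 lower at both time points. Markers of stratified squamous epithelium summed to 550.1 and 3201.9 CPM in WT and to 114.3 and 140.8 CPM in cKO, with 6 of 6 lower at both. Leukocyte markers summed to 57.1 and 40.5 CPM in WT and to 84.5 and 102.8 CPM in cKO, with 5 of 6 higher at both. The 3 adipocyte markers were also higher at both (95.2 and 117.1 against 298.4 and 242.4 CPM). At 5 weeks that sum was nearly all Fabp4 (115.9 CPM in WT and 240.6 in cKO). Adipoq (0.247 and 0.471 CPM) and Plin1 (0.95 and 1.35 CPM) were then scarce in both genotypes. Luminal markers (1 of 8 lower and 2 of 8 higher at both) and fibroblast markers (0 of 6 lower and 2 of 6 higher) did not separate the genotypes in this way. The fibroblast sum changed direction with time. In cKO it was below WT at 10 days (24108.8 against 34784.6 CPM) and above WT at 5 weeks (48955 against 21658.8 CPM). At both times 3 of 4 endothelial and 2 of 3 pericyte markers were higher and 1 of 3 red cell markers lower. Of these markers 0 had no counts in all 4 libraries. The part these cells have in the lower replication transcripts was not tested.

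Between time points, with genotype held constant, replication transcripts stood somewhat higher at 5 weeks. Of the 45 genes, 40 had a positive log2 fold change, where 10387 of all 18917 genes did, with a median of 0.31 beside 0.03 for all genes tested. Negative estimates, 5 in this fit, numbered 28 of the 45 without WT at 5 weeks and 22 without cKO at 10 days, in fits that also lacked the genotype term. By edgeR 0 of the 45 had an adjusted p under 0.05, where 0.0634% of all genes did. DESeq2 called 1 of the 45, Rrm2, where it called 192 of 18917 genes in either direction. By limma-voom 0 of the 45 were called, where 39 of 18917 genes were. At an unadjusted p under 0.05, 4 were higher and 0 lower, or 8.89%, where 3.09% of all genes were higher. Without the genotype term but with all 4 libraries, 0 of the 45 had an unadjusted p under 0.05, where 1.27% of all genes were higher. Leaving out a library as well mixes the genotype difference into the time estimate. The median was then 0.01 without cKO at 10 days, -0.10 without WT at 5 weeks, 0.49 without cKO at 5 weeks and 0.58 without WT at 10 days. Within a genotype, the median log2 ratio of 5 weeks to 10 days was 0.32 in WT and 0.22 in cKO.

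The 4 genes were Rrm2, Tk1, Mcm5 and Uhrf1, which were also among those lower in cKO. Rrm2, given above in every library, had a log2 fold change of 1.40 for time (SE 0.294, adjusted p = 0.403), with ratios of 1.33 in WT and 1.47 in cKO. Tk1 had 1.18 (SE 0.307, adjusted p = 0.623), with ratios of 1.25 in WT and 1.08 in cKO. Both genes were therefore higher at 5 weeks in each genotype by similar amounts. Mcm5 (0.67, SE 0.254, adjusted p = 0.897) and Uhrf1 (0.92, SE 0.350, adjusted p = 0.905) had smaller ratios in WT (0.43 and 0.38) than in cKO (0.90 and 1.49). Genotype and time comparisons use the same 4 libraries, so these are not separate evidence.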

How the data were processed

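RNA of 4 libraries was analysed from 1 deposited table of estimated counts per gene, given as whole numbers by the authors, so no rounding was needed. The submitters' processing notes list Salmon and GRCm38 without versions or roles. Annotation and strand setting: not given in the sources used here. Each of the 54393 identifiers matched GENCODE M21, which supplied symbols, positions and exon lengths; for a symbol with several identifiers the one with most counts was used. The table held 0 columns of other samples.

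Low genes were removed by filterByExpr at a minimum count of 10, and libraries were scaled by TMM. In edgeR 4.0.16, run in R 4.3.3, a quasi-likelihood fit (robust) took genotype and time point as its terms and left 1 residual degree of freedom. Benjamini-Hochberg adjustment covered the 18917 genes tested, and 0.05 was the threshold. Standard errors were obtained from each log2 fold change and its F statistic, as the size of the first over the root of the second. Log2 CPM used a prior count of 2. Levels per kilobase divide CPM by the union of annotated exons, which may differ from the transcripts expressed. Alternatives were DESeq2 1.42.0, limma-voom (limma 3.58.1), 2 other scalings, no filter, no second term and leaving out each library, which also dropped the second term. The second term was time point in the genotype fit and genotype in the time fit. The genotype fit was also run on simulated counts with set genotype differences and no time effect, using dispersions from these data. That run does not show how the fit handles time differences like those here.

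Time point serves as the block in the genotype comparison, pairing the WT and cKO library of a time; the labels carry no replicate numbers. Counts of the libraries of a genotype were not alike within sampling noise (chi-square over its degrees of freedom was 193 in WT and 103 in cKO), which includes the time difference. Nothing in the labels says that libraries came from separate animals. Each genotype had 1 library per time point, so the 1 residual degree of freedom held only how the genotype difference changed between time points. The edgeR fit also drew on the spread of other genes, with a median of 4.57 prior degrees of freedom. Its p-values therefore do not measure the spread between animals or between libraries of the same genotype and time. The members, the lists of other replication, mitosis and marker genes and the tests were chosen with earlier results of these data known. Full values were given, in each role, for the genes with the smallest and largest p and the highest level per kilobase, and for each with an unadjusted p under 0.05; of the other replication genes, the 6 with the smallest p and the 3 most abundant were named. E2f1 was given in full after its values were seen.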

Additional observations from a re-analysis of the deposited data

Results flagged for a closer look

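The cKO to WT log2 ratios of 11 of the 45 replication genes had opposite signs at 10 days and 5 weeks. Each ratio rests on 1 library per genotype, so none of these differences was tested. The ratio at 5 weeks minus that at 10 days was 1.49 for E2f1, 0.92 for Ccne2, 0.75 for Pole2, 0.61 for Orc6 and 0.20 for Rpa3, which were lower in cKO at 10 days and level or higher at 5 weeks. It was -0.49 for Rpa1, -0.43 for Rfc4, -0.37 for Pola2, -0.35 for both Mcm4 and Rfc1 and -0.33 for Gins3, which were level or slightly higher in cKO at 10 days and lower at 5 weeks. For E2f1 and Orc6 the ratio at 5 weeks was 0.01, so the change of sign itself is slight.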

How the results depend on the processing

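Under the 10 alternative fits 36 of the 45 genes kept the sign of their genotype log2 fold change. The number of genes called for genotype, 11 in the fit reported, was 5 with DESeq2 size factors, 3 with upper-quartile factors, 1235 without a low-count filter, 512 with DESeq2, 29 with limma-voom and 0 without the replicate block by time point (where 15 of the 45 members had an unadjusted p under 0.05 and the median was unchanged), and it ran from 0 to 61 without a library. Of the replication genes 8 were called without the filter and 5 with DESeq2. For time, where 12 genes were called, it was 638 without the filter, 192 with DESeq2, 39 with limma-voom and 1 without the replicate block, and from 0 to 19 without a library; Rrm2 was the 1 member called without the filter and by DESeq2. Members higher at 5 weeks at an unadjusted p under 0.05 numbered 2 with upper-quartile factors, where 1 other member was lower. Those higher numbered 2 with limma-voom, 0 without the replicate block and from 0 to 5 without a library. For genotype, members lower in cKO at that level ran from 7 to 16 without a library.

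Without a library the members' median ran from -0.72 to -0.39 for genotype and from -0.10 to 0.58 for time, and that of the other replication genes from -0.51 to -0.27. Pole2 turned to 0.02 with limma-voom and 0.01 without the replicate block. Genotype estimates that changed sign without a library ran from -0.19 to 0.05 for Mcm4, -0.39 to 0.09 for Gins3, -0.36 to 0.09 for Pola2, -0.48 to 0.36 for Pole2, -0.41 to 0.16 for Rfc4, -0.36 to 0.04 for Rpa1, -0.30 to 0.19 for Rpa3, -1.54 to 0.03 for E2f1 and -0.36 to 0.78 for Ccne2. Of the 4 genes described for time, Mcm5 (-0.40 to 1.87) and Uhrf1 (-0.14 to 2.24) changed sign; over all 45, negative time estimates went from 5 to 28 without WT at 5 weeks and 22 without cKO at 10 days. Fits without the replicate block or without a library held only the term tested. Those for genotype lacked the time term, and those for time lacked the genotype term, so each mixes in the other difference where a library is missing. The causes of these changes were not tested. Counts in cKO at 10 days were 13 for Orc1, 30 for Cdc6 and 17 for Ccne2, so counting error is widest for these.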

Other observations

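Some genes with related roles, picked after their values were seen, had positive log2 fold changes between genotypes. Orc2, Orc3, Orc4 and Orc5, subunits of the origin recognition complex outside the 45 genes, had 0.16 (SE 0.237), 0.16 (SE 0.251), 0.52 (SE 0.270) and 0.29 (SE 0.278). Orc1 had -1.40 and Orc6 had -0.29. Orc2 to Orc5 did not reach an unadjusted p under 0.05 in edgeR, and Orc3 and Orc5 overlapped between genotypes. Rrm2b, the ribonucleotide reductase subunit used outside S phase, stood at 8.77 and 12.4 CPM in WT, compared with 15.1 and 17.6 CPM in cKO (0.64, SE 0.262, adjusted p = 0.437), so its cKO libraries were above its WT libraries, the reverse of Rrm2. Tk2, the mitochondrial thymidine kinase, had 0.22 (SE 0.254), where Tk1 had -1.78. These gene pairs were not tested against each other.

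Of 7 listed inhibitors of cyclin-dependent kinases, 0 reached an unadjusted p under 0.05, where 1098 of all 18917 genes were lower and 1098 higher. Their median log2 fold change was 0.11. Cdkn1a, the most abundant, stood at 221.9 and 400.5 CPM in WT, compared with 311.6 and 248.5 CPM in cKO. The libraries of Cdkn1b did not overlap, at 50.4 and 43.2 CPM in WT against 53.6 and 61.1 CPM in cKO (0.30, SE 0.213, adjusted p = 0.652).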
